A study of Mus musculus with 26 samples.

Results

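The genes described here are the opioid and cannabinoid receptors and the opioid peptide precursors, 9 genes chosen by name and matched by Ensembl identifier: the opioid receptors *Oprm1* (mu), *Oprd1* (delta), *Oprk1* (kappa) and *Oprl1* (nociceptin), the cannabinoid receptors *Cnr1* and *Cnr2*, and the precursors *Penk* (proenkephalin), *Pdyn* (prodynorphin) and *Pnoc* (prepronociceptin). All 9 were among the 55401 genes counted, and all 9 passed the filter on low counts in each fit. RNA was sequenced from mouse lumbar dorsal root ganglia (L4 to L6 DRG, the clusters of sensory neuron cell bodies beside the spinal cord) and from neurons cultured from them, in 26 libraries that fall into 10 groups. Conditional knockout (cKO) mice carried the label Ahr f/f Thy1-CRE(ERT2/EYFP), that is, floxed alleles of *Ahr* (the aryl hydrocarbon receptor) and a Cre that tamoxifen switches on, driven by *Thy1*, with a yellow fluorescent protein. Control mice had no Cre label, and the floxed alleles were labelled Ahr fl/+ in 2 naive and 2 injured mice and Ahr fl/fl in 1 naive and 1 injured mouse. Controls of the cultured neurons were 3 Ahr fl/fl, and the sham controls were 1 Ahr f/+ and 1 Ahr fl/fl. Tamoxifen was given to the naive and injured groups of both genotypes, at 100 mg/kg once a day over 5 days from the age of 28 weeks. Their ganglia were taken 5 weeks later without injury (naive, 3 control and 3 cKO mice) or 1 day after a sciatic nerve crush made at that time (injured, 3 and 3). For the other groups the labels give no tamoxifen and no age: semi-purified neurons 24 h after seeding (3 control, 3 cKO), and ganglia 1 day after sham surgery from the ipsilateral and the contralateral side of 2 control and 2 cKO mice. Naive and neuron libraries were labelled female and sham libraries male, while the injured group held both sexes.

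Opioid receptors are inhibitory G protein-coupled receptors. In sensory neurons they close calcium channels and open inwardly rectifying potassium channels, which lowers transmitter release in the spinal cord, and mu opioid drugs act in part there. Enkephalins from proenkephalin act mainly on the delta and mu receptors, dynorphins from prodynorphin on the kappa receptor, and nociceptin on its own receptor. The cannabinoid receptor encoded by *Cnr1* is the main one of neurons and couples to the same G proteins, while the one encoded by *Cnr2* is best known from immune cells.

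Total counts were 20169388 to 23540375 per library in naive and injured ganglia, 39306414 to 58751270 after sham surgery and 25299938 to 88180611 in neurons. The counts of *Ahr* were taken over the whole gene, so they could not show the loss of a floxed part, and the genotypes overlapped in naive ganglia and in neurons: 18.9 to 23.8 CPM (counts per 1000000 of the TMM-scaled library) in naive control and 22.7 to 28.1 CPM in naive cKO libraries, and 44.7 to 56.1 CPM in control and 44.3 to 56.6 CPM in cKO neurons. *Thy1*, whose promoter drives the transgene, was at 706 to 806 CPM in naive control and 1250 to 1420 CPM in naive cKO libraries, and it separated the genotypes without overlap in each setting. *Atf3*, a nerve injury gene, was at 11 to 17.3 CPM in naive and 525 to 769 CPM in injured ganglia. It was also at 42.3 to 180 CPM in the 4 ipsilateral sham libraries against 10.2 to 12.2 CPM in the contralateral ones. In the injured group 2 libraries, control 3 and cKO 2, went against their sex label by their sex-linked transcripts. Where leaving out both changed the call of a gene described here (adjusted p under 0.05), that value is given. Fold changes that moved without a change of call are not given one by one for this setting. Markers of sensory neurons were present in every group, and none of 10 was at 0.

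In naive ganglia the mu receptor gene was the most abundant of the 9 by counts and by counts per kb of exon, and the 5 genes *Oprm1*, *Penk*, *Oprl1*, *Cnr1* and *Oprd1* stood well above the other 4. Per kb of exon, the naive control level was 19.7 ± 3.47 CPM (SD, n = 3 mice) for *Oprm1*, 10 for *Penk*, 9.71 for *Oprl1*, 8.09 for *Cnr1* and 8.06 for *Oprd1*. The remaining genes were at 0.611 (*Cnr2*), 0.401 (*Oprk1*), 0.352 (*Pnoc*) and 0.186 CPM per kb of exon (*Pdyn*). *Oprm1* (chr10:6758506-7038198, plus strand, GRCm38) covers 279693 bases with 8037 bases of exon, and the authors' counts include introns. Per kb of the whole gene the order changed: *Oprl1* (chr2:181715016-181720985, plus strand) came first with 6.10 CPM per kb, before *Penk* (chr4:4133531-4138819, minus strand) with 3.10, *Cnr1* (chr4:33924593-33948831, plus strand) with 2.15 and *Oprd1* (chr4:132110726-132144486, minus strand) with 0.960, and *Oprm1* was the fifth with 0.565. The position of *Oprm1* among these genes therefore depends on whether intronic reads are divided over exons or over the gene. *Oprk1* (chr1:5588466-5606131, plus strand), *Cnr2* (chr4:135895394-135920207, plus strand), *Pdyn* (chr2:129686565-129699844, minus strand) and *Pnoc* (chr14:65400673-65425472, minus strand) were the lowest 4 on both scales. In contralateral sham control ganglia *Penk* came first per kb of exon, with 10.6 CPM against 9.91 for *Oprm1*. *Pdyn* and *Pnoc* gave 490 and 352 counts in all 26 libraries together, so their values rest on few reads. *Ipcef1*, on the other strand of *Oprm1*, had counts equal to 2.31% of those of *Oprm1*, and *A830012C17Rik*, opposite *Penk*, had 4.07%. No counted gene overlapped the other 7.

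**Figure D1:**
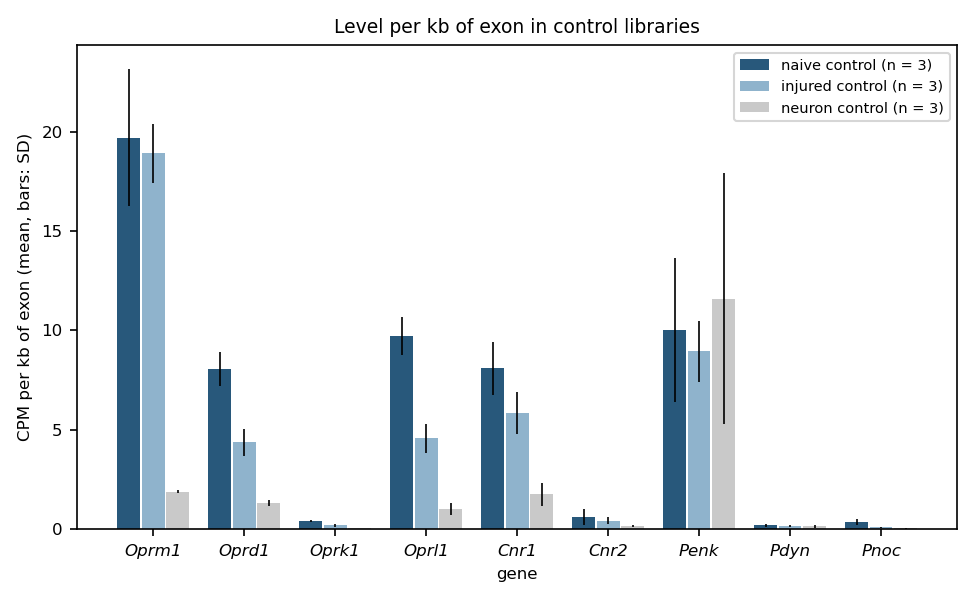
Mean level per kb of exon (CPM per kb, linear axis; bars give the SD of 3 libraries) of the 9 genes in naive, injured and cultured control libraries. *Oprm1* leads in both ganglion groups at 19.7 and 18.9 CPM per kb, while in culture *Penk* is the highest at 11.6 and *Oprm1* is at 1.88. The counts include introns, and per kb of the whole gene *Oprl1* leads in these ganglion groups (6.10 and 2.86) while *Oprm1* is at 0.565 and 0.544.

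Across the 10 groups each of the 6 receptor genes had its highest mean in a naive group and its lowest in a group of cultured neurons. Mean *Oprm1* was 199 CPM in naive cKO, 165 in injured cKO, 158 in naive control and 152 in injured control ganglia, and neighbouring groups overlapped. The 4 sham groups came next at 76.6 to 89.4 CPM without overlap with the injured ones, and neurons last at 18.9 (cKO) and 15.1 CPM (control). Naive and injured ganglia, sham ganglia and neurons differ in treatment as labelled and depth, and the sham libraries also in being all male, so the steps between these 3 sets cannot be told apart from those differences. *Penk* had another order: ipsilateral sham ganglia of cKO mice (54.8 CPM) and cKO neurons (38.3) were highest, and the other 8 groups lay between 14.6 and 18.9 CPM with overlapping ranges.

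**Figure D2:**
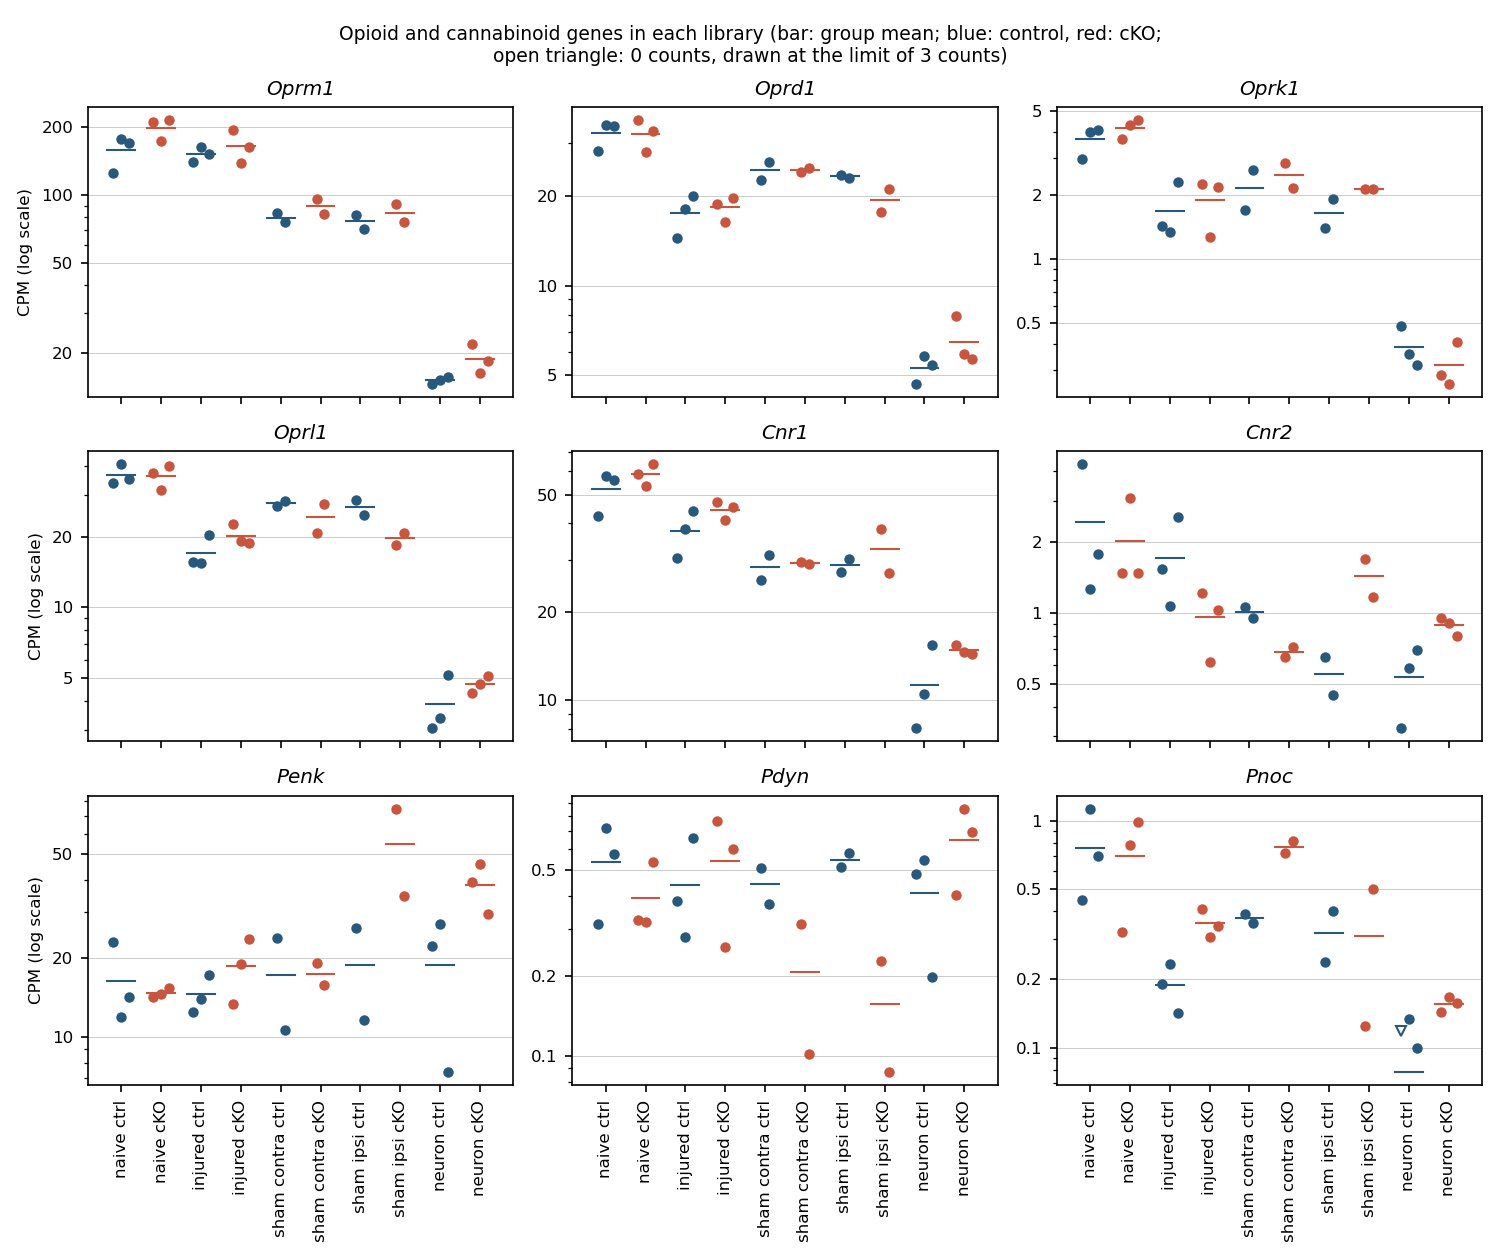
CPM of each gene (log axis) in each of 26 libraries by group, with control in blue, cKO in red and a bar at each group mean; the open triangle marks a library with 0 counts at its limit of 3 counts. The injured libraries of *Oprd1*, *Oprk1* and *Oprl1* lie below all naive ones in both genotypes, while those of *Oprm1* overlap them.

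One day after sciatic nerve crush, the delta, kappa and nociceptin receptor genes fell in ganglia of both genotypes, by 0.82 to 1.11 on the log2 scale, whereas no change of the mu receptor gene was called. In control ganglia 5 of 9 genes fell (*Oprl1*, *Oprd1*, *Oprk1*, *Cnr1* and *Pnoc*) and 0 rose, where 8.73% of all 21261 genes tested were called lower and 21.6% in either direction. In cKO ganglia 3 of 9 fell (*Oprl1*, *Oprd1* and *Oprk1*) and 0 rose, where 7.9% of all genes were called lower and 18.7% in either direction. The median log2 fold change of the 9 genes was -0.50 in control and -0.82 in cKO ganglia, against -0.02 and -0.00 over all genes. Injured libraries lay below all naive libraries for 4 of 9 genes in control ganglia, where 17.1% of all genes did so, and for 5 of 9 in cKO, where 17.6% did. Calls are from edgeR's quasi-likelihood test with Benjamini-Hochberg adjusted p under 0.05, and errors of log2 fold changes are SE. In whole ganglia, fewer cells of a type and less RNA per cell cannot be told apart. By sex-linked transcripts all naive and all injured control libraries were female, and injured cKO 2 and 3 were male. Sex so read goes with injury in cKO ganglia only, and with genotype in injured ganglia and in the interaction of injury and genotype.

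*Oprl1*, the receptor for nociceptin, was at 33.8, 40.5 and 35.0 CPM in the 3 naive control libraries and at 15.6, 15.4 and 20.3 CPM in the injured ones. In cKO ganglia it was at 37.2, 31.4 and 39.9 CPM before and 22.6, 19.1 and 18.7 CPM after injury. Every injured library lay below every naive library of either genotype. The log2 fold change was -1.09 ± 0.127 in control (adjusted p = 0.000108) and -0.85 ± 0.126 in cKO ganglia (adjusted p = 0.000653), and the call held in all 17 alternatives in each genotype.

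*Oprd1*, the delta receptor and a main target of enkephalins, was at 28.4, 34.6 and 34.3 CPM in naive control and 14.5, 18.1 and 20 CPM in injured control libraries. In cKO ganglia it was at 35.9, 28.0 and 33.0 CPM before and 18.8, 16.4 and 19.7 CPM after injury. Naive and injured libraries again did not overlap. The log2 fold change was -0.89 ± 0.129 in control (adjusted p = 0.000494) and -0.82 ± 0.128 in cKO ganglia (adjusted p = 0.000936), with the call kept in all 17 alternatives in each.

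*Oprk1*, the kappa receptor for dynorphins, was far less abundant, with 25 to 101 counts per library. It was at 2.96, 3.97 and 4.09 CPM in naive control and 1.43, 1.35 and 2.31 CPM in injured control libraries, and at 3.71, 4.30 and 4.53 CPM in naive cKO and 2.26, 1.28 and 2.20 CPM in injured cKO libraries. The groups did not overlap in either genotype. The log2 fold change was -1.11 in both, ± 0.240 in control (adjusted p = 0.00605) and ± 0.234 in cKO ganglia (adjusted p = 0.00574). With sex as read from the transcripts as a covariate, the cKO call was lost (log2 fold change -0.89, adjusted p = 0.160), a setting in which 1414 rather than 3966 genes were called.

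*Cnr1*, the main cannabinoid receptor of neurons, had smaller fold changes. It was at 42.3, 58.1 and 56.0 CPM in naive control and 30.5, 38.2 and 44.2 CPM in injured control libraries, so that the highest injured library passed the lowest naive one. In cKO ganglia it was at 58.9, 53.5 and 63.4 CPM before and 47.2, 40.9 and 45.5 CPM after injury, without overlap. The log2 fold change was -0.47 ± 0.138 in control (adjusted p = 0.0304), and -0.39 ± 0.137 in cKO ganglia, which was not called (adjusted p = 0.0671). The control call was lost in 5 of 17 alternatives, among them leaving out naive control 2 (adjusted p = 0.0962), naive control 3 (0.102), injured control 1 (0.115) or injured control 2 (0.0748). The cKO value was called in 4 of 17, DESeq2 among them (adjusted p = 0.0382).

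*Oprm1*, the receptor for morphine and for enkephalins, was at 126, 177 and 171 CPM in naive control and 140, 164 and 153 CPM in injured control libraries. In cKO ganglia it was at 210, 173 and 215 CPM before and 194, 139 and 163 CPM after injury. Ranges overlapped in both genotypes, and the log2 fold changes of -0.05 ± 0.143 (adjusted p = 0.834) and -0.27 ± 0.143 (adjusted p = 0.227) were not called in any of the 17 alternatives. *Cnr2* was at 1.26 to 4.27 CPM in naive control and 1.07 to 2.55 CPM in injured control libraries, and at 1.48 to 3.07 and 0.617 to 1.22 CPM in cKO. Its log2 fold changes of -0.50 ± 0.465 and -1.05 ± 0.509 were not called (adjusted p = 0.495 and 0.187). Over 17 alternatives the control value ran from -0.90 to 0.17, and its direction turned without naive control 1 (0.17, adjusted p = 0.833). The highest *Cnr2* library, naive control 1, also had the highest sums of the 6 neutrophil markers (715 CPM against 58.3 to 425 CPM in the other 11 libraries) and of the 7 lymphocyte markers (11.1 against 3.82 to 7.59 CPM). In cKO ganglia the neutrophil sum was lower after injury without overlap, like *Cnr2* (195 to 380 CPM in naive, 58.3 to 130 CPM in injured libraries). The part of these cells in the level of *Cnr2* was not tested.

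Of the peptide precursors, *Pnoc* was the one that fell, and on few reads. It had 10, 25 and 17 counts in the naive and 4, 5 and 3 counts in the injured control libraries, and 7, 17 and 22 counts in naive against 9, 6 and 8 in injured cKO libraries. Control groups did not overlap and cKO groups did. The log2 fold change was -1.97 ± 0.482 in control (adjusted p = 0.0120) and -0.97 ± 0.434 in cKO ganglia (adjusted p = 0.153). As a ratio of summed counts per total, injured over naive, this was 0.238 in control ganglia (exact 95% interval 0.116 to 0.452, counting error only) and 0.497 in cKO (0.287 to 0.836). The control call was lost without both libraries that went against their sex label (log2 fold change -1.82, adjusted p = 0.0572), and the cKO value was called without naive cKO 1 (-1.31, adjusted p = 0.0429). The sum of 9 markers of central nervous tissue was 24.4 to 29.6 CPM in naive and 22.8 to 24.5 CPM in injured control libraries, with *Lbx1* and *Olig2* at 0 in both groups. In cKO it was at 26.9 to 28 CPM before and 21.4 to 26.8 CPM after injury, without overlap, and its part in the fall of *Pnoc* was not tested. *Penk* was at 11.9 to 23.1 CPM in naive and 12.5 to 17.3 CPM in injured control libraries, and at 14.2 to 15.4 and 13.4 to 23.8 CPM in cKO. *Pdyn* was under 1 CPM in every library. Neither was called in either genotype, with log2 fold changes of -0.17 ± 0.242 and 0.35 ± 0.240 for *Penk* and -0.29 ± 0.444 and 0.47 ± 0.452 for *Pdyn*. Over 17 alternatives *Penk* ran from -0.36 to 0.16 in control and from -0.14 to 0.53 in cKO ganglia, so its direction turned in each.

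**Figure D3:**
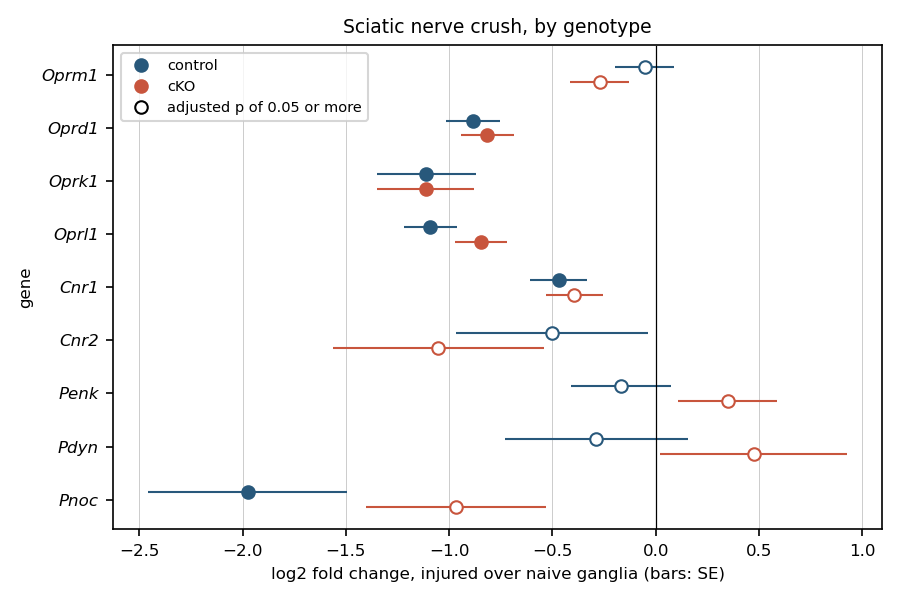
Log2 fold change of injured over naive ganglia for each gene (points; bars give SE; 3 libraries per group) in control and cKO mice, with filled points for adjusted p under 0.05. *Oprd1*, *Oprk1* and *Oprl1* are filled in both genotypes between -0.82 and -1.11, and *Oprm1* is near 0.

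Averaged over both genotypes, 5 of 9 genes fell with injury, where 15.7% of all genes were called lower and 34.1% in either direction: *Oprl1* (log2 fold change -0.97 ± 0.0894), *Oprd1* (-0.85 ± 0.0909), *Oprk1* (-1.11 ± 0.168), *Cnr1* (-0.43 ± 0.0974) and *Pnoc* (-1.47 ± 0.325). The other genes were not called, with -0.16 ± 0.101 for *Oprm1*, -0.78 ± 0.345 for *Cnr2*, 0.09 ± 0.170 for *Penk* and 0.09 ± 0.317 for *Pdyn*. The injury effect itself was compared between genotypes by their interaction. It was called for 0 of 9 genes and 0% of all genes by edgeR, with 0 of 9 at an unadjusted p under 0.05 and 627 of all genes, and DESeq2 called 0. The largest differences, cKO minus control, were 1.01 ± 0.669 (log2) for *Pnoc* and 0.76 ± 0.633 for *Pdyn*, and those of *Oprl1*, *Oprd1* and *Oprk1* were 0.25 ± 0.178, 0.07 ± 0.181 and -0.00 ± 0.381. The remaining differences were -0.22 ± 0.202 for *Oprm1*, 0.08 ± 0.195 for *Cnr1*, -0.55 ± 0.691 for *Cnr2* and 0.51 ± 0.341 for *Penk*. The sum of 8 nociceptor markers was 2410 to 2620 CPM in naive and 2510 to 2730 CPM in injured control ganglia, and 2530 to 2890 against 2480 to 2650 CPM in cKO. The sum of 10 markers of all sensory neurons was 10500 to 12300 and 10700 to 11200 CPM in control and 10700 to 12000 and 10600 to 12600 CPM in cKO ganglia. The sum of 6 markers of large-diameter sensory neurons was 2830 to 3680 CPM in naive and 2590 to 3050 CPM in injured control ganglia, and 3100 to 3680 against 2990 to 3580 CPM in cKO. Naive and injured ranges of these 3 sums overlapped in both genotypes, with the lowest injured library below the naive range for large-diameter markers in both genotypes and for nociceptor and all-neuron markers in cKO, and their part in the fall of the receptor genes was not tested. The sum of 5 satellite glia markers was higher after injury, 997 to 1070 against 837 to 919 CPM in control and 1040 to 1150 against 796 to 1020 CPM in cKO ganglia, and its part in these values was not tested.

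Promoters are shown for the receptor genes called lower after injury in control ganglia that had an entry, which leaves out *Oprk1*; of these *Cnr1* was not called in cKO. RefSeq (GRCm38.p6) promoter entries were matched for 6 of the 9 genes, and the 250 bases before the transcript start are given 5′ to 3′ on the gene's strand. They were searched on both strands for GCGTG, the core to which AhR with its partner binds, for TGACGTCA, the cAMP response element, and for TGANTCA, the AP-1 site, which does not overlap the other motifs in letters. Capitals mark GCGTG or its reverse complement. The *Oprd1* entry lies at chr4:132144487-132144736, the first of 3 *Oprl1* entries at chr2:181714766-181715015, and the second of 3 *Cnr1* entries at chr4:33924394-33924643.
Oprd1: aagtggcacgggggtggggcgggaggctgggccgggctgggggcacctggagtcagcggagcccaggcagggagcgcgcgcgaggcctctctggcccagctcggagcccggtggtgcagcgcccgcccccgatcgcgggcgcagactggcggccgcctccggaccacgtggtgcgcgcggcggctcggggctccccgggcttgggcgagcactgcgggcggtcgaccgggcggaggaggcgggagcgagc
Oprl1: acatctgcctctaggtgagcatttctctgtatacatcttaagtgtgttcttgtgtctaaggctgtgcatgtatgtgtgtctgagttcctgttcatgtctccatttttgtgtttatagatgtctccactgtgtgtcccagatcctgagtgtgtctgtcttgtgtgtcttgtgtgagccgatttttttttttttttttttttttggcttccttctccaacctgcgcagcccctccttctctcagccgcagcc
Cnr1: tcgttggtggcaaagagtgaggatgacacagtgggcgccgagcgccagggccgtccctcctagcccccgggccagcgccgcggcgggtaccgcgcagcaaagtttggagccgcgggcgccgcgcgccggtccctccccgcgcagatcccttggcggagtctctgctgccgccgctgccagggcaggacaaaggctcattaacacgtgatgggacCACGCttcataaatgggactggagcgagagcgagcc
Each of the 3 *Cnr1* entries held 1 GCGTG, and the entries of *Oprm1*, *Oprd1*, *Oprl1*, *Pdyn* and *Cnr2* held none of the motifs. Over all 32536 promoters of this length, 28.3% held GCGTG, 1.56% TGACGTCA and 6.73% TGANTCA. The *Oprd1* sequence is 80.0% G and C, that of *Oprl1* 44.4% and that of *Cnr1* 68.8%. The other *Cnr1* entries are at 79.2% and 49.2% and the other *Oprl1* entries at 54.8% and 48.8%. How far the 3 genes differ in base composition therefore depends on the entry, while only the *Cnr1* entries among them held a motif.

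Genes that make, process or relay these signals moved in both directions after injury, and the counts below stand beside shares of 21.6% of all genes called in control and 18.7% in cKO ganglia, so those of 2 of 12 and 3 of 13 are near that background. Of 12 genes of opioid peptide processing and breakdown, 2 rose and 0 fell in each genotype: *Pcsk1*, a convertase that cleaves prohormones, went from 83.1 ± 10.3 to 142 ± 7.42 CPM (SD, n = 3) in control ganglia (log2 fold change 0.78 ± 0.117, adjusted p = 0.000619), and *Ctsl*, the protease cathepsin L, rose by 0.37 ± 0.0632 (adjusted p = 0.00134). Of 24 tested genes of receptor signalling, 5 rose and 5 fell in control ganglia and 3 rose and 7 fell in cKO. *Kcnj3*, a subunit of the potassium channels that opioid receptors open, fell from 45.6 ± 4.98 to 22.4 ± 3.81 CPM in control ganglia (-1.03 ± 0.127, adjusted p = 0.000161) and by 0.87 ± 0.126 on the log2 scale in cKO (adjusted p = 0.000524). In control ganglia *Arrb1* (arrestin beta 1, which uncouples active receptors) rose by 0.66 ± 0.0749, *Grk6*, a kinase that marks active receptors, by 0.41 ± 0.0746 and *Gnai3*, an inhibitory G protein subunit, by 0.35 ± 0.0613. In cKO ganglia *Arrb1* rose by 0.55 ± 0.0748, *Ogfr*, the opioid growth factor receptor, by 0.31 ± 0.0657, and *Grk2*, another such kinase, changed by -0.45 ± 0.0630. Of 13 genes of endocannabinoid synthesis and breakdown, 1 rose and 2 fell in control ganglia and 2 fell in cKO. *Faah*, which breaks down anandamide, changed by -0.35 ± 0.0779 in control and -0.42 ± 0.0775 in cKO ganglia, and *Mgll*, monoacylglycerol lipase, by -0.26 ± 0.0573 and -0.30 ± 0.0573. *Daglb*, a lipase that makes endocannabinoid, was called higher in control ganglia (0.24 ± 0.0494), but *Rac1*, which overlaps it, had 597% of its counts. Of 5 tested other lipid receptors 2 rose in each genotype: *Gpr119* by 0.64 ± 0.168 and 1.17 ± 0.172, and the capsaicin channel *Trpv1* by 0.30 ± 0.0734 and 0.23 ± 0.0732. The list medians in control ganglia were 0.09, -0.08, -0.02 and 0.23 in the order given, against -0.02 over all genes.

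Between genotypes, no change of these genes was called in ganglia or neurons with the filter on low counts in place. In naive ganglia edgeR called 0 of 9 genes, where 0.00941% of all genes were called, and in injured ganglia 0 of 9, where the share was also 0.00941%. At an unadjusted p under 0.05 there was 1 of 9 in naive ganglia (1232 of all genes) and 0 of 9 in injured ganglia (579 of all genes), and DESeq2 called 0 of 9 in both, with 3 and 2 of all genes. The gene at naive p under 0.05 was *Oprm1*, with log2 fold change 0.34 ± 0.143 for cKO over control and adjusted p = 0.754; its libraries at 173 to 215 CPM overlapped the controls at 126 to 177 CPM. For *Oprl1* and *Oprd1* the naive differences were -0.01 ± 0.122 and -0.00 ± 0.124. The others were 0.19 ± 0.219 for *Oprk1*, 0.17 ± 0.136 for *Cnr1*, -0.27 ± 0.456 for *Cnr2*, -0.15 ± 0.241 for *Penk*, -0.44 ± 0.450 for *Pdyn* and -0.12 ± 0.380 for *Pnoc*, each with overlapping groups. In injured ganglia only *Pnoc* separated the genotypes, at 0.308 to 0.407 CPM in cKO and 0.142 to 0.233 CPM in control libraries (log2 fold change 0.89 ± 0.551), where 8.72% of all genes separated the groups. The receptor genes differed by 0.12 ± 0.143 for *Oprm1*, 0.06 ± 0.132 for *Oprd1*, 0.18 ± 0.255 for *Oprk1*, 0.24 ± 0.130 for *Oprl1*, 0.24 ± 0.139 for *Cnr1* and -0.82 ± 0.519 for *Cnr2* (log2, cKO over control). Over 17 alternatives *Oprk1* ran from 0.04 to 0.68, *Oprl1* from 0.14 to 0.42 and *Cnr1* from 0.12 to 0.43. *Cnr2* ran from -1.07 to -0.20, *Oprm1* from -0.01 to 0.35 and *Oprd1* from -0.05 to 0.24, and none was called. The other precursors differed by 0.36 ± 0.241 for *Penk* and 0.32 ± 0.446 for *Pdyn*.

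In cultured neurons 0 of 9 genes were called between genotypes by edgeR, as were 0% of all 23295 genes tested, with 3 of 9 and 1863 of all genes at an unadjusted p under 0.05. DESeq2 called 0 of 9 and 163 of all genes. Groups did not overlap for 4 of 9 genes, all higher in cKO, where 15.2% of all genes separated the groups and 7.54% were higher in cKO. *Penk* was at 39.2, 46.1 and 29.6 CPM in cKO and 22.3, 27.1 and 7.34 CPM in control neurons, so the lowest cKO library was just above the highest control (log2 fold change 1.02 ± 0.404, adjusted p = 0.601). Over 13 alternatives this value ran from 0.63, without neuron control 3, to 1.41, without neuron control 2. *Oprm1* was at 21.9, 16.3 and 18.4 CPM in cKO and 14.6, 15.2 and 15.6 CPM in control neurons (0.32 ± 0.115, adjusted p = 0.584). *Cnr2* was at 0.801 to 0.954 and 0.324 to 0.698 CPM (0.66 ± 0.266, adjusted p = 0.602). *Pnoc*, the fourth, had 12 or 13 counts in each cKO library and 0, 12 and 6 in the controls, whose depth differs; the library at 0, control 1, has the lowest total, and 0 of 25299938 counts allows up to 0.119 CPM. Its log2 fold change was 0.67 ± 0.554. Groups overlapped for the other 5 genes, with 0.28 ± 0.159 for *Oprd1*, -0.23 ± 0.315 for *Oprk1*, 0.27 ± 0.199 for *Oprl1*, 0.37 ± 0.202 for *Cnr1* and 0.67 ± 0.423 for *Pdyn*. Neutrophil marker sums overlapped, at 52.7, 130 and 41.7 CPM in cKO and 15.7, 66.6 and 12.6 CPM in control neurons, with only cKO 2 above all controls. Their part in these values was not tested.

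After sham surgery, *Penk* was highest in the ipsilateral ganglia of both cKO mice, and the tests called no gene of the 9. In cKO mice it was at 74.8 and 34.7 CPM on the ipsilateral and 19.2 and 15.8 CPM on the contralateral side, and in control mice at 26.1 and 11.6 CPM and 24.0 and 10.7 CPM. Both ipsilateral cKO libraries were above both contralateral ones. On the ipsilateral side the same 2 libraries had higher neutrophil marker sums (576 and 264 CPM against 199 and 141 CPM in control mice) and lymphocyte marker sums (12.5 and 9.44 against 7.08 and 4.01 CPM), and the part of these cells in the level of *Penk* was not tested. By the labelled mouse numbers the sides differed by 1.96 and 1.14 on the log2 scale in cKO and by 0.12 in each control mouse. The labels name the same mouse for both sides. The deviations of the cKO sides correlated at -0.159, which with 2 mice per group cannot tell a true from a crossed pairing. Contralateral control and ipsilateral cKO libraries, from different mice, correlated at 0.168. With the cKO numbers crossed the differences are 2.24 and 0.85. Between genotypes on the ipsilateral side the log2 fold change was 1.53 ± 0.516 (adjusted p = 0.560), where edgeR called 0 of 9 genes and 0.00451% of all 22160 genes, with 5 of 9 and 1682 of all genes at an unadjusted p under 0.05. DESeq2 called 0 of 9 and 153 of all genes. With no filter on low counts *Penk* was called (adjusted p = 0.00119), as was *Cnr2* (0.0209), in a fit that called 626 genes. Over all 12 alternatives the adjusted p of *Penk* ran from 0.00119 to 0.999 and its log2 fold change from 0.86, without ipsilateral cKO 1, to 2.24, without ipsilateral control 1.

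*Cnr2* on the ipsilateral side was at 1.69 and 1.17 CPM in cKO and 0.649 and 0.446 CPM in control mice (log2 fold change 1.37 ± 0.296, adjusted p = 0.498). On the contralateral side the order was the opposite, with 0.650 and 0.714 CPM in cKO and 1.06 and 0.952 CPM in control mice (-0.56 ± 0.299, adjusted p = 0.880). The lymphocyte marker sum moved with it on the ipsilateral side, 9.44 to 12.5 CPM in cKO against 4.01 to 7.08 CPM in control mice, as did the neutrophil sum (264 to 576 against 141 to 199 CPM) and the macrophage sum (152 to 172 against 133 to 147 CPM). On the contralateral side the macrophage sum was lower in cKO without overlap, like *Cnr2* (135 to 142 against 143 to 159 CPM). The neutrophil sum was higher there, at 224 to 308 CPM in cKO and 195 to 214 CPM in control mice, and the lymphocyte ranges overlapped (5.03 to 8.14 and 7.41 to 8.1 CPM). Their part in the level of *Cnr2* was not tested. *Oprl1* and *Oprd1* were lower in ipsilateral cKO ganglia without overlap, *Oprl1* at 18.5 and 20.8 CPM against 28.5 and 24.7 CPM (-0.44 ± 0.141, adjusted p = 0.555) and *Oprd1* at 17.7 and 21.1 against 23.6 and 23.0 CPM (-0.26 ± 0.110, adjusted p = 0.639). Of the neuron marker sums, 2 were lower in the same libraries without overlap: large-diameter markers at 2430 and 2760 CPM against 3000 and 2950 CPM, and all sensory neuron markers at 12500 and 12300 CPM against 13100 and 13700 CPM. The nociceptor sum was not lower, at 3600 and 3390 CPM against 3490 and 3200 CPM. Their part in these 2 values was not tested. *Pdyn* had the largest difference by size on this side, at 0.227 and 0.0868 CPM in cKO and 0.513 and 0.580 CPM in control mice (-1.77 ± 0.586, adjusted p = 0.557), on 4 to 30 counts per library. It was lower without overlap on the contralateral side too, at 0.313 and 0.102 CPM against 0.512 and 0.373 CPM (-1.07 ± 0.582, adjusted p = 0.880). The other ipsilateral differences were 0.13 ± 0.119 for *Oprm1*, 0.38 ± 0.274 for *Oprk1*, 0.19 ± 0.162 for *Cnr1* and -0.03 ± 0.601 for *Pnoc*. Together 6 of 9 genes separated the ipsilateral groups, 3 in each direction, where 33.3% of all genes did, 17.6% higher and 15.7% lower in cKO. On the contralateral side 3 of 9 did, where 39% of all genes did, and edgeR called 0 of 9 and 0% of all genes, with 0 of 9 and 1160 of all genes at an unadjusted p under 0.05; DESeq2 called 0 of 9 and 31 of all genes. The contralateral differences of the genes not yet given were 0.17 ± 0.119 for *Oprm1*, 0.01 ± 0.109 for *Oprd1*, 0.20 ± 0.27 for *Oprk1*, -0.20 ± 0.141 for *Oprl1*, 0.05 ± 0.163 for *Cnr1*, 0.01 ± 0.514 for *Penk* and 1.04 ± 0.552 for *Pnoc*.

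Between sides, averaged over genotypes, edgeR called 0 of 9 genes and 0.00451% of all genes, with 2 of 9 and 1675 of all genes at an unadjusted p under 0.05, and DESeq2 called 0 of 9 and 200 of all genes. Those at p under 0.05 were *Penk* (log2 fold change 0.88 ± 0.363, ipsilateral over contralateral, adjusted p = 0.645) and *Oprd1* (-0.20 ± 0.0774, adjusted p = 0.617). Side differences of -0.08 ± 0.0839 for *Oprm1*, -0.31 ± 0.192 for *Oprk1*, 0.09 ± 0.115 for *Cnr1*, 0.10 ± 0.211 for *Cnr2*, -0.05 ± 0.406 for *Pdyn* and -0.77 ± 0.407 for *Pnoc* were not called either. The 2 receptors that fell without overlap in both genotypes after crush and were above 10 CPM, *Oprd1* and *Oprl1*, differed by -0.20 and -0.18 ± 0.0997 here, and their fall after crush was not compared with the sham side by a test. The difference of the side effect between genotypes was called for 0 of 9 and 0% of all genes by edgeR, with 1 of 9 (*Cnr2*, 1.93 ± 0.420, adjusted p = 1) and 904 of all genes at an unadjusted p under 0.05, and DESeq2 called 0 of 9 and 12 of all genes. The other differences of the side effect were -0.04 ± 0.168 for *Oprm1*, -0.27 ± 0.155 for *Oprd1*, 0.17 ± 0.384 for *Oprk1*, -0.24 ± 0.199 for *Oprl1*, 0.14 ± 0.230 for *Cnr1*, 1.53 ± 0.724 for *Penk*, -0.70 ± 0.836 for *Pdyn* and -1.07 ± 0.816 for *Pnoc*. Over 16 alternatives the side value of *Penk* ran from 0.53 to 1.23, and its difference between genotypes from 0.80 to 2.23. With no filter on low counts its side value was called (adjusted p = 0.0148). The fit took the 2 sides of a mouse as separate samples, so these SE include differences between mice. With the mouse as a block edgeR called 0 of 9 and 4 of all genes between sides. With 2 mice per genotype, and both sides of each from 1 animal, each of these values rests on 4 animals.

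**Figure D4:**
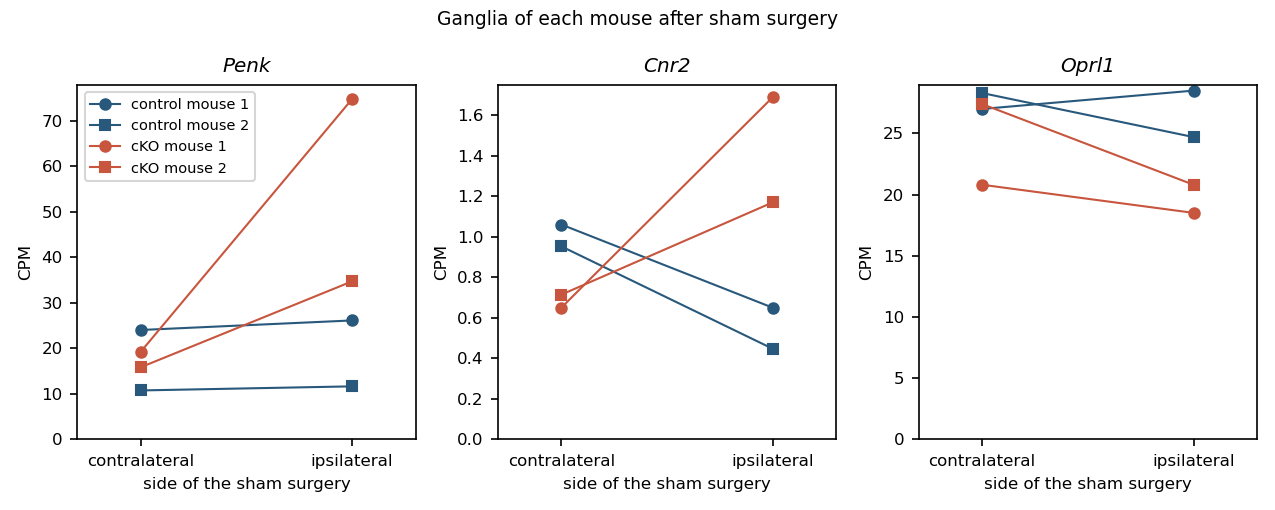
CPM (linear axis from 0) of *Penk*, *Cnr2* and *Oprl1* on the contralateral and ipsilateral side of each sham mouse, with 1 line per mouse. *Penk* is at 74.8 and 34.7 CPM on the operated side of the cKO mice, whose lines join the sides by labelled mouse number, and the *Cnr2* lines of the genotypes cross.

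In cultured neurons the receptor genes were far below their level in ganglia, and *Penk* was not. Against naive ganglia of the same genotype, 7 of 9 genes were lower in control neurons and 0 higher, where 41.6% of all 22185 genes were called lower and 83.2% in either direction. In cKO neurons 7 of 9 were lower and 1 higher, where 40.1% were called lower and 82.1% in either direction. *Oprm1* fell from 126, 177 and 171 CPM in control ganglia to 14.6, 15.2 and 15.6 CPM in neurons, 9.81-fold lower (log2 fold change -3.29 ± 0.147, adjusted p = 7.58e-10), and 9.93-fold in cKO. *Oprk1* was 9.30-fold lower in control and 12.3-fold in cKO, *Oprl1* 8.72-fold and 7.21-fold, *Oprd1* 5.68-fold and 4.67-fold, and *Cnr1* 4.27-fold and 3.71-fold. All libraries of these 5 receptor genes lay below all naive libraries. *Cnr2* was 4.04-fold lower in control and 2.12-fold in cKO neurons (log2 fold change -1.09 in cKO). The cKO call was lost without naive cKO 2, where the value was smaller in size (-0.68, adjusted p = 0.179). It was also lost without neuron cKO 1, 2 or 3, where the value stayed near its size (-1.14, -1.10 and -1.01, adjusted p = 0.0559, 0.0620 and 0.0805). *Pnoc* was also lower in both (log2 fold change -2.82 ± 0.551 and -2.05 ± 0.50).

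*Penk* was the exception among the abundant genes. In cKO it rose from 14.2, 14.6 and 15.4 CPM in ganglia to 39.2, 46.1 and 29.6 CPM in neurons, 2.77-fold (log2 fold change 1.47 ± 0.389, adjusted p = 0.00385), where 42% of all genes were called higher. In control it was at 23.1, 11.9 and 14.2 CPM in ganglia and 22.3, 27.1 and 7.34 CPM in neurons, which overlap (0.29 ± 0.387, adjusted p = 0.499); without neuron control 3 the difference was called (0.69, adjusted p = 0.0224). *Pdyn* was called in neither (log2 fold change -0.31 ± 0.459 and 0.80 ± 0.455), though in cKO it was called without neuron cKO 1 (1.06, adjusted p = 0.0463). Culture, depth, deposited table and treatment as labelled all differ between these sets and cannot be told apart. The marker sums differed too: sensory neurons 5340 to 6720 CPM in control neurons against 10500 to 12300 CPM in naive control ganglia, nociceptors 1820 to 2010 against 2410 to 2620 CPM, Schwann cells 911 to 1070 against 4260 to 5410 CPM, central nervous tissue 3.91 to 4.8 against 24.4 to 29.6 CPM, and endothelial cells 886 to 1270 against 92.5 to 123 CPM. Neutrophil sums were 12.6 to 66.6 against 120 to 715 CPM, lymphocyte sums 2.44 to 3.72 against 6.03 to 11.1 CPM and macrophage sums 177 to 184 against 153 to 207 CPM. In cKO neurons against naive cKO ganglia, sensory neuron sums were 6460 to 6590 against 10700 to 12000 CPM and endothelial sums 812 to 900 against 83.0 to 139 CPM. Neutrophil sums there were 41.7 to 130 against 195 to 380 CPM. The part of cell composition in these differences was not tested.

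**Figure D5:**
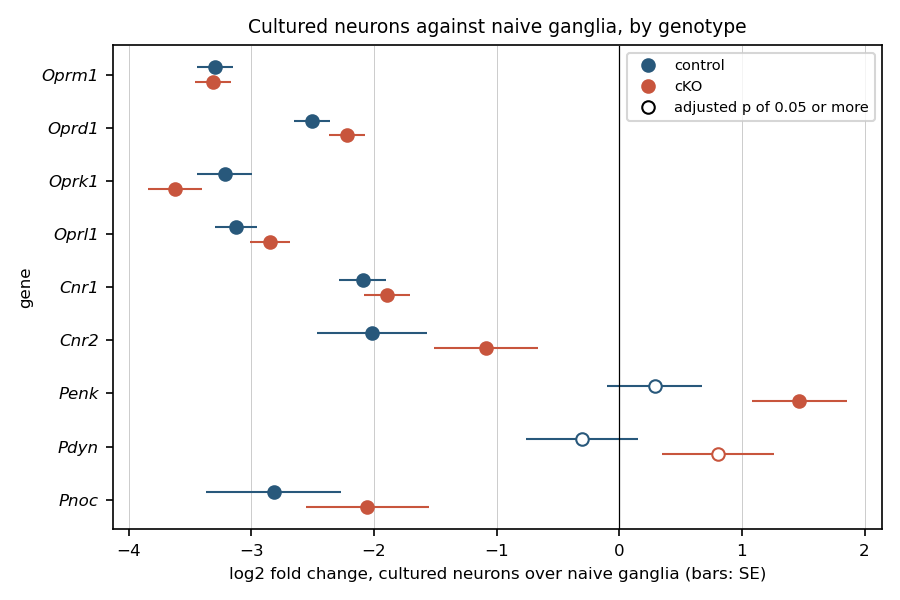
Log2 fold change of cultured neurons over naive ganglia for each gene (points; bars give SE; 3 libraries per group) in control and cKO mice, with filled points for adjusted p under 0.05. The 6 receptor genes and *Pnoc* are filled on the left in both genotypes, down to -3.62 for *Oprk1*, and *Penk* is filled on the right in cKO at 1.47.

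The genes most like each receptor gene in level over the 20 ganglion libraries were found by Pearson's correlation of log2 CPM. They are given as a description, since these libraries fall into groups by table, sex and injury, and steps between the groups enter the values. *Oprm1*, for example, was at 126 to 215 CPM in naive and injured and 71.1 to 96.2 CPM in sham libraries. For *Oprm1* they were *Rbms3* (0.983), *Pgm2l1* (0.981) and *Bmpr2* (0.978), and for *Cnr1* *Frrs1l* (0.950), *Bcl2* (0.945) and *Gprin3* (0.933). For *Oprd1* they were *Prokr1* (0.967), *Amigo3* (0.963) and *Tpbgl* (0.954), and for *Oprl1* *Fam13a* (0.960), *Kdm4d* (0.953) and again *Amigo3* (0.943), which is uncertain because overlapping *Rnf123* has 408% of its counts. For *Cnr2* they were *Ikzf1* (0.922), *Cybb* (0.918) and *Cytip* (0.917), and for *Oprk1* *Ncald* (0.914), *Pqlc3* (0.895) and *Minar1* (0.895). For *Penk* they were *Srd5a2* (0.882), *Uts2b* (0.872) and *Cartpt* (0.871). Genes overlapping *Srd5a2*, *Ncald* and *Tpbgl* had 32.2%, 26.6% and 26.4% of their counts. *Pdyn* and *Pnoc*, with a mean under 1 CPM, were not compared.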

How the data were processed

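Dorsal root ganglia and cultured neurons of mice gave 26 sequenced libraries (TruSeq Stranded mRNA, per the labels' protocols). Trim Galore, HISAT2 and featureCounts and the mm10 build are named in the submitters' processing notes; versions and the strand setting are not given in the sources used here. The authors deposited whole-number counts per gene and FPKM values in 2 tables each. The length implied by the deposited FPKM was the gene span with introns, within 0.1% for 99.4% of genes with counts. Of 55401 genes, 55141 were matched to a symbol (GENCODE M21, GRCm38).

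Counts were tested with edgeR 4.0.16 (R 4.3.3; filterByExpr with minimum count 10 and minimum total 15, TMM, quasi-likelihood F test, two-sided, 1 mean per group). The 12 naive and injured, 6 neuron and 8 sham libraries were fitted as 3 sets, and naive with neuron libraries in a further fit, with Benjamini-Hochberg adjustment over all genes and calls under 0.05. SE is the fold change over the square root of F. CPM use the TMM factors of the library's own set. Replicates are separate mice, per the series' design. The fit was tested on simulated data.

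All 9 genes are named in each comparison, and from each pathway list at most 4 called genes by smallest p. The genes and lists were chosen with earlier results of these data known. Alternatives were DESeq2 1.42.0, RLE factors, other filters and thresholds, limma 3.58.1 on log2(FPKM + 0.1), sex, the replicate block, and each library left out.

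Same-numbered naive, injured and neuron libraries share only a number. The 2 sides of each sham mouse come from 1 animal, per the labels, and their deviations from the group means correlated at 0.229 in control and -0.159 in cKO mice.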

Additional observations from a re-analysis of the deposited data

Results flagged for a closer look

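Between settings, 90 pairs of genotype effects (cKO over control) were compared for opposite directions without overlap of the groups, and only *Cnr2* was flagged. A separate check of the side effect in each sham mouse flagged 2 genes, *Cnr2* and *Pdyn*. For these, all control mice moved one way between sides and all cKO mice the opposite way. Together this made 4 flags, of which the side flag of *Cnr2* repeats a contrast flagged among the pairs. For *Cnr2* the genotype effect (cKO over control, log2) was 1.37 in ipsilateral and -0.56 in contralateral sham ganglia, a difference of 1.93. The same difference, read as the side effect in cKO minus that in control mice, is also 1.93, and its interaction test gave an adjusted p of 1 (edgeR). *Cnr2* was at 20 to 82 counts in these 8 libraries. The genotype effect on *Cnr2* was 0.66 in cultured neurons against -0.56 in contralateral sham ganglia, a difference of 1.22 (1.215), which was not tested. For *Pdyn*, at 4 to 30 counts per sham library, the side effect in cKO minus that in control mice was -0.70 (-0.698), with an adjusted p of 1 (edgeR). This opposite movement rests on the labelled mouse numbers of the cKO sides. Ipsilateral cKO 1 was at 0.227 CPM and contralateral cKO 2 at 0.102 CPM, so with the numbers crossed not every cKO mouse is lower on the operated side. It also rests on control mouse 1, at 0.512 CPM on the contralateral and 0.513 CPM on the operated side, whose order turned with scaling over all libraries together (0.552 and 0.549 CPM) or by total counts (0.517 and 0.511 CPM).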

How the results depend on the processing

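The number of the 9 genes called stayed within 1.5 times of the reported count in 205 of 207 alternatives. Both exceptions came with no filter on low counts, where 2 were called between genotypes in ipsilateral sham ganglia (*Penk*, *Cnr2*) and 1 between sham sides (*Penk*, adjusted p = 0.0148); the cause was not tested. Leaving out each library in turn gave 4 to 5 called genes for injury in control and 3 to 4 in cKO ganglia, 5 to 6 in their mean, and 7 to 8 for culture in each genotype. Of 435 alternatives of called values, 11 lost the call and 0 changed sign; of 1398 of values not called, 11 gained it and 74 changed sign. With the replicate number as a block, injury gave 5, 3 and 5 calls (control, cKO, mean) and the other comparisons within the naive, injured, neuron and sham sets 0, and culture 7 and 8, so the block changed no count of the 9. Same-numbered libraries did not all correlate above 0.1. With cKO mouse numbers crossed in the sham block, chosen after seeing the data, edgeR called 9 rather than 4 genes between sides and 0 of the 9. Counts over all genes moved more: injury in cKO gave 1414 calls with sex from transcripts and 2400 without the 2 libraries that went against their sex label, also chosen after seeing the data. The genotype comparison in injured ganglia gave 15 calls without injured cKO 1, and the interaction 8. With 0 or 1 call over all genes as reported, the alternatives reached 163 in neurons (DESeq2) and, with no filter on low counts, 626 in ipsilateral and 59 in contralateral sham ganglia, 381 between sides and 144 for their interaction. Scaling all 26 libraries together moved 12 of 90 group levels by more than their SD, and scaling by total counts moved 2. A fit of only the groups compared was not run where a comparison uses all groups of its fit. Depth limits *Pdyn* and *Pnoc*, at 66 counts or fewer per library.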
